A study of Mus musculus with 8 samples.

Results

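The genes described here are 9 transcription factors that set myeloid identity: Spi1, Cebpa, Cebpb, Cebpe, Irf8, Irf4, Klf4, Maf and Pou2f2. They were taken by name, out of the 32285 genes in the count matrices, and all 9 were present and passed the minimum of 100 UMIs (unique molecular identifiers, each a counted mRNA molecule) in every comparison of whole groups. Their UMIs were summed by library, by hashtag genotype and by marker-defined cell class. The cells were sorted as CD45+CD11b+Ly6Chi from blood or tumors of mice that carried MC38, a colon carcinoma line, and were profiled with 10x Genomics 3′ single-cell RNA-seq. There were 4 libraries: blood control, blood IR, tumor control and tumor IR, where IR is 1 local dose of 20 Gy given 3 days before collection. In each library, hashtag antibodies separated cells of Ythdf2 fl/fl mice (WT) from cells of Lyz Cre+;Ythdf2 fl/fl mice (cKO), in which the Cre is driven from the lysozyme locus of myeloid cells, so both genotypes carried the floxed alleles of the m6A reader gene Ythdf2. The mice were males and females aged 8 to 10 weeks, and 5 were pooled for each of the 8 combinations of tissue, treatment and genotype. Each combination is therefore 1 sample with no replicate, no test between groups was run, and each interval given is a 95% interval for counting error only.

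PU.1, encoded by Spi1, opens myeloid enhancers and works with C/EBP proteins, which drive granulocyte and monocyte genes. IRF8 favours monocytes and dendritic cells over neutrophils, IRF4 acts in dendritic cells, macrophages and B cells, and KLF4 promotes monocyte differentiation. c-MAF is a factor of resident-type macrophages, and OCT2, encoded by Pou2f2, is an octamer-binding factor best known from B cells.

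After filtering, 28834 cells remained, 2176 to 4845 in a group, with median depths of 2808 to 3152 UMIs per cell in the blood groups and 5951 to 8458.5 in the tumor groups, and 19328328 to 24722263 gene UMIs in a group. Before any tumor value is read, the libraries themselves need a remark, because 12558 barcodes with at least 500 gene UMIs occurred in both tumor matrices. Of 7327 tumor control barcodes with under 20 hashtag UMIs, 7325 had hashtags in tumor IR. The treatment of a tumor cell was therefore taken from the library that held its hashtags. Whether that library gives the true treatment was not tested, and every tumor comparison of IR with control rests on it. When tumor cells were read from the other tumor matrix, their members hardly moved: Cebpe was 4.52 CPM (the UMIs of a gene as a share of all gene UMIs, on the usual CPM scale) in the tumor control WT cells from their own matrix and 5.13 from the tumor IR matrix, and 20.7 against 21.2 in the tumor IR WT cells. Both readings are of the same cells, so they do not check the treatment assigned to a cell. The 276 barcodes with hashtags in both tumor libraries were left out in an alternative.

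The genotype labels were checked on the genes that the alleles touch. Lyz2, which the Cre insertion disrupts, read 13945 and 13394 CPM in the WT groups of blood (control, IR) and 6889 and 5634 in those of the tumor, and 138, 82.7, 87.5 and 99.6 CPM in the matching cKO groups. Ythdf2 went against its label, with 32.6, 34.8, 55.5 and 51.4 CPM in the WT groups and 302.1, 336, 374 and 339 CPM in the cKO groups. Tags at the 3′ end that lie outside the floxed part do not check the deletion, and the groups are called cells labelled WT and cells labelled cKO. The sort was also looser than its gate. Neutrophil-like cells were 65.7% to 73.9% of the blood groups, and fibroblast-like cells, which a CD45 gate should lack, were 4.5% and 11.6% of the tumor control WT and cKO groups. Cells were grouped into 30 clusters without the members, and 26 clusters were named from markers. The unnamed clusters of the tumor are given by number: cluster 3 (led by Dmkn, Nrg1, Cxcl10), cluster 5 (Ly6i, Cfb, Cxcl9, Nos2), cluster 6 (Cdh1, Tnip3, Mgl2) and cluster 14 (Gm26917, Gm42418, mt-Nd5).

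The promoters of 6 members were in the RefSeq table of the mouse build GRCm38.p6, and those of Spi1, Cebpe and Maf are named only. The 250 bases before the start are shown for the IRF members and for Pou2f2. The IRF members marked partly different cell classes below and shared mature dendritic cell-like cells. Pou2f2 was the member furthest apart between tissues in all pairings but IR cKO. The motifs were searched on both strands, and matches are in capitals: GAGGAA (the core bound by PU.1), TTGCNNAA (C/EBP), TTCNNNGAA (bound by STAT factors), the interferon response element (bound by IRF and STAT complexes), CCACCC (KLF) and ATGCAAAT (the octamer bound by OCT2). Irf8 (chr8:120736108-120736357, plus strand) held the STAT-type motif at -171 and at -153 from the start, Irf4 (chr13:30748983-30749232, plus strand) held the PU.1 core on the minus strand at -19, and Pou2f2 (chr7:25132461-25132710, minus strand) held CCACCC at -202 and the PU.1 core at -85, on the opposite strand. The Pou2f2 window lies inside the annotated gene (25087344 to 25179726), before an internal start and not before the outermost one.
Irf8: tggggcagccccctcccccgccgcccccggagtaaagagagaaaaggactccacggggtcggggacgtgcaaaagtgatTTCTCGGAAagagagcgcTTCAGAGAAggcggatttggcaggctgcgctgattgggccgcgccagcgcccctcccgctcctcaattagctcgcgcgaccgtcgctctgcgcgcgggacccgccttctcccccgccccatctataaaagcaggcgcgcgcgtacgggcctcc
Irf4: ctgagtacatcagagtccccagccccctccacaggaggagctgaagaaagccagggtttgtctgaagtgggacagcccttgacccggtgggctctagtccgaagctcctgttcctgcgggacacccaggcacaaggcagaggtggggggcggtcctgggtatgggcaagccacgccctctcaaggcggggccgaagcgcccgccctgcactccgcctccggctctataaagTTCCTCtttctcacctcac
Pou2f2: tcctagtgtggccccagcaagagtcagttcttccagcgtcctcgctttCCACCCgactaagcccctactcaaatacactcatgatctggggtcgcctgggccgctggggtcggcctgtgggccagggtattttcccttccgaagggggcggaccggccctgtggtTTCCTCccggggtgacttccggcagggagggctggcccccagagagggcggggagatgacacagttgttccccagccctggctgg
Of 32851 promoter windows of the same length, 23.3% held the PU.1 core, 9.56% the C/EBP motif, 7.02% the STAT-type motif, 2.98% the interferon response element, 28.1% CCACCC and 1.60% the octamer. Cebpa and Cebpb each held 1 CCACCC on the minus strand, and Klf4 and the second Irf8 start held no match. The matches are a description of letters and not of binding.

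Between blood and tumor the members did not all go the same way, and Cebpb, Cebpe and Irf4 overlapped between the tissues. In all 4 pairings of a tumor group with the blood group of the same treatment and genotype, Klf4 and Maf were higher in the tumor and Spi1 and Pou2f2 were lower, each past a 2-fold limit (an absolute log2 ratio of at least 1 after adding 1 UMI). A further member was past the limit on the low side in each pairing: Cebpe in both control pairings and Cebpa in both IR pairings. That made 5 of 9 members in each pairing, against 35.8% of all tested genes in control WT, 44.0% in control cKO, 32.9% in IR WT and 32.4% in IR cKO. The tumor and blood groups did not overlap for 6 of 9 members (Irf8, Klf4 and Maf above, Spi1, Cebpa and Pou2f2 below), and for 64.5% of 12621 genes, so the members' share was near that of all genes. A sum over a group cannot tell fewer cells of a type from less RNA per cell, and the classes of cells differed between tissues, so values within classes follow each gene.

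**Figure D1:**
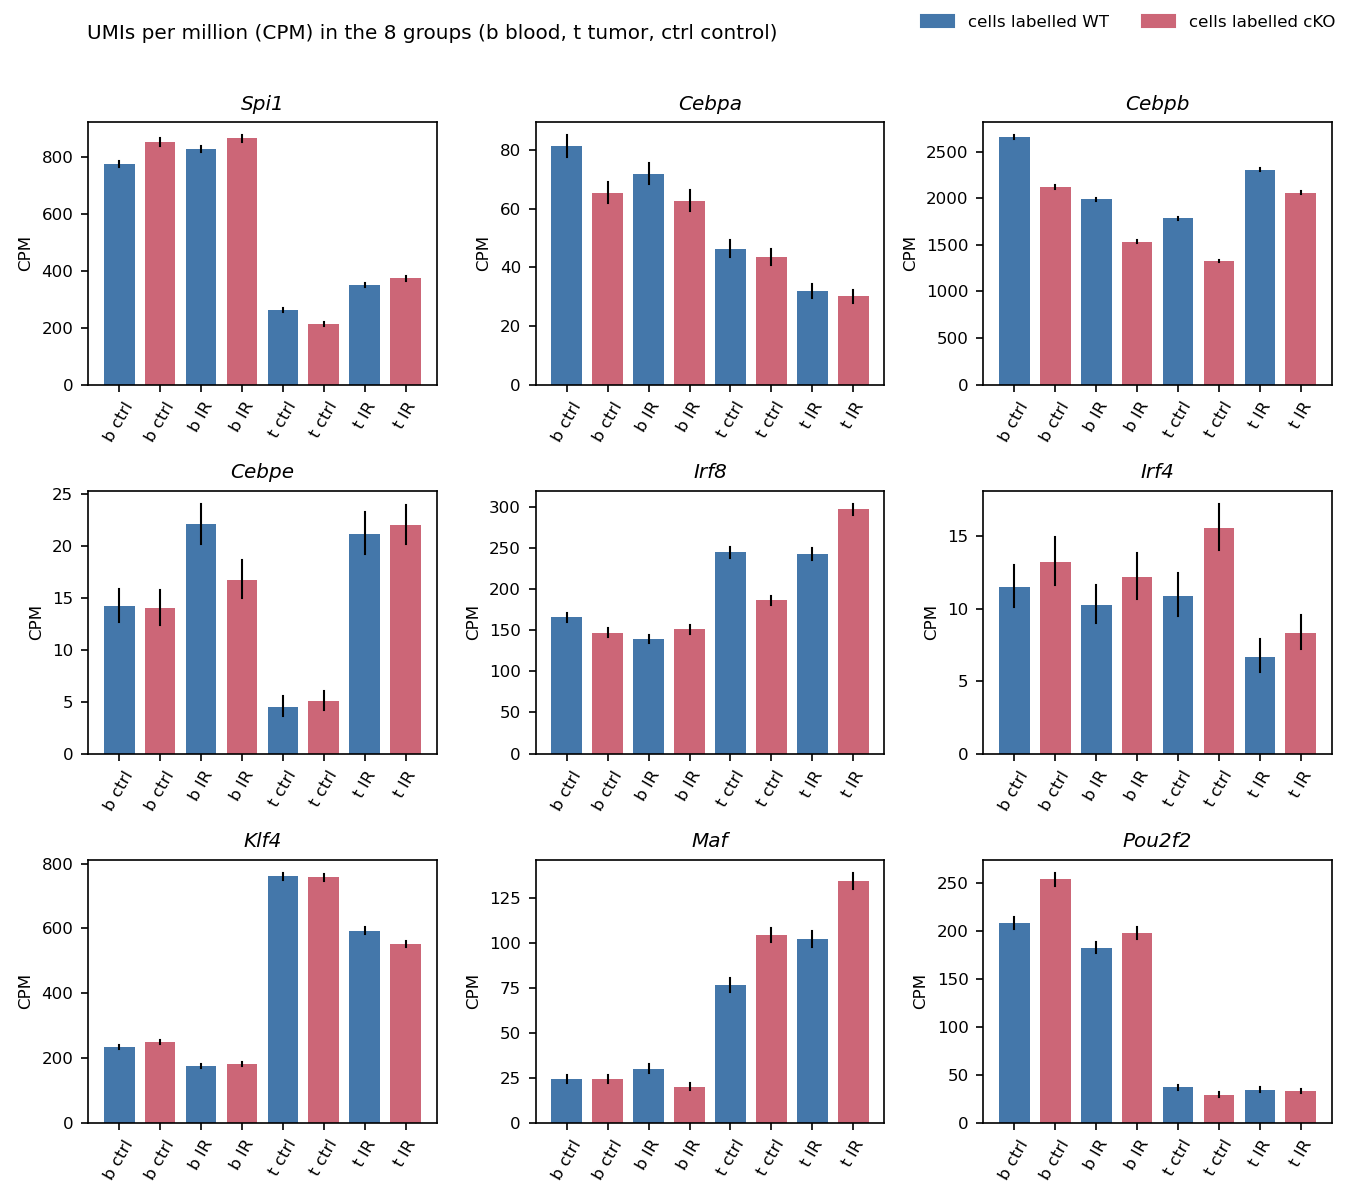
Level of each member in CPM (y axis, from 0) in the 8 groups (x axis), with 95% counting intervals. Klf4 and Maf sit higher in the 4 tumor groups than in the 4 blood groups, Spi1 and Pou2f2 sit lower, and Cebpe is at 4.49 and 5.01 CPM in the tumor control groups against 14 to 22.0 in the other 6.

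**Figure D2:**
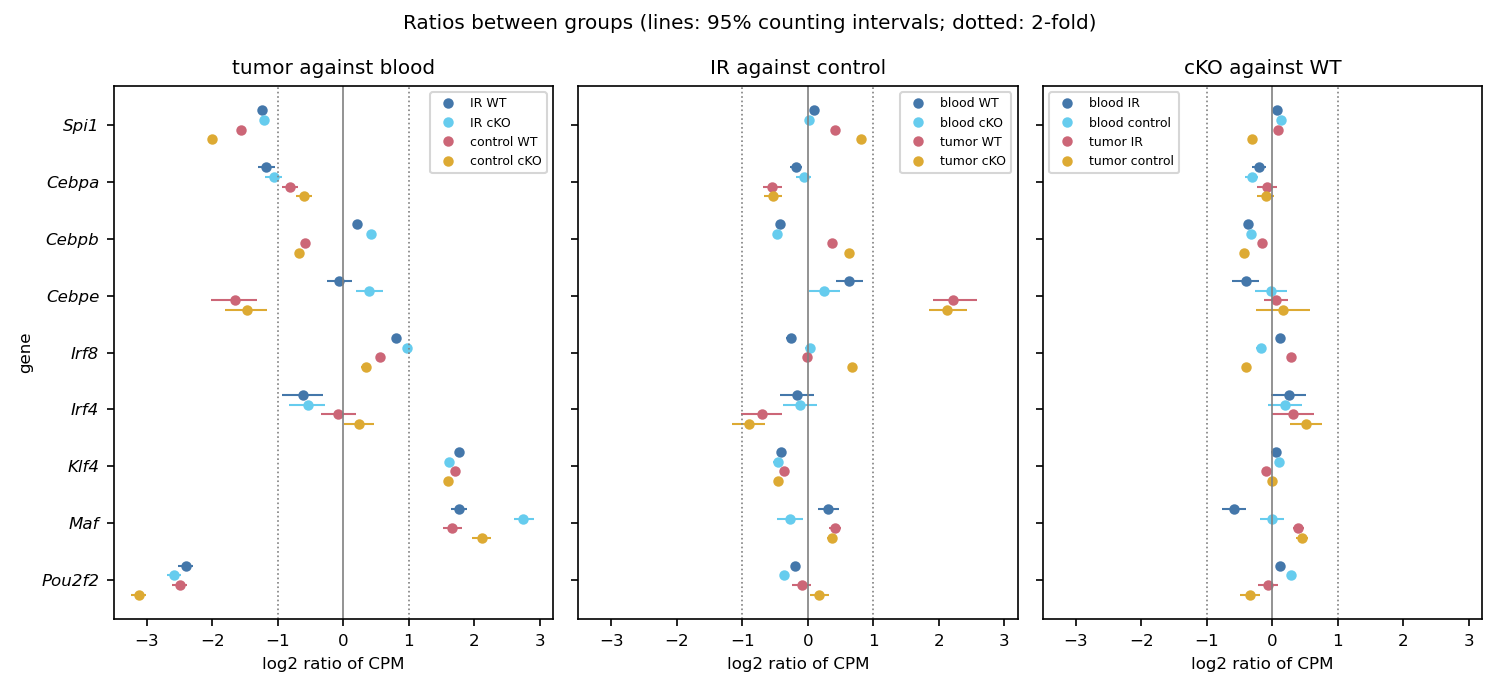
Log2 ratio of CPM of each member (y axis) for cKO against WT, IR against control and tumor against blood, 4 comparisons each, with 95% counting intervals and dotted lines at 2-fold. No member passes a dotted line by genotype, Cebpe alone does by treatment, at 2.22 and 2.13 in the tumor, and 5 members do in each comparison of tissues.

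Spi1 (positions are of the mm10 build; chromosome 2, 91082390 to 91115756, plus strand) encodes PU.1. It read 775, 854, 828 and 866 CPM in the blood groups (control WT, control cKO, IR WT, IR cKO, the order used throughout) and 263, 213, 351 and 373 CPM in the tumor groups. Every blood group was above every tumor group, and the tumor IR groups were above the tumor control groups. The tumor to blood log2 ratios were -1.56, -2.01, -1.24 and -1.21 in control WT, control cKO, IR WT and IR cKO. By class the highest level was in neutrophil-like cells, at 1082 CPM, followed by nonclassical monocyte-like cells at 845, classical monocyte-like cells at 606 and macrophage-like cells at 290.5 CPM, and the gene was at 3.11 CPM in fibroblast-like cells and 12.8 in NK cell-like cells. Neutrophil-like cells held 50.5% of its UMIs in the control library of blood and 52.3% in the IR library. Within classical monocyte-like cells of the IR libraries the tumor to blood difference was smaller than over the whole groups, at -0.59 in WT and -0.70 in cKO, and within neutrophil-like cells it was -1.63 and -1.35.

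**Figure D3:**
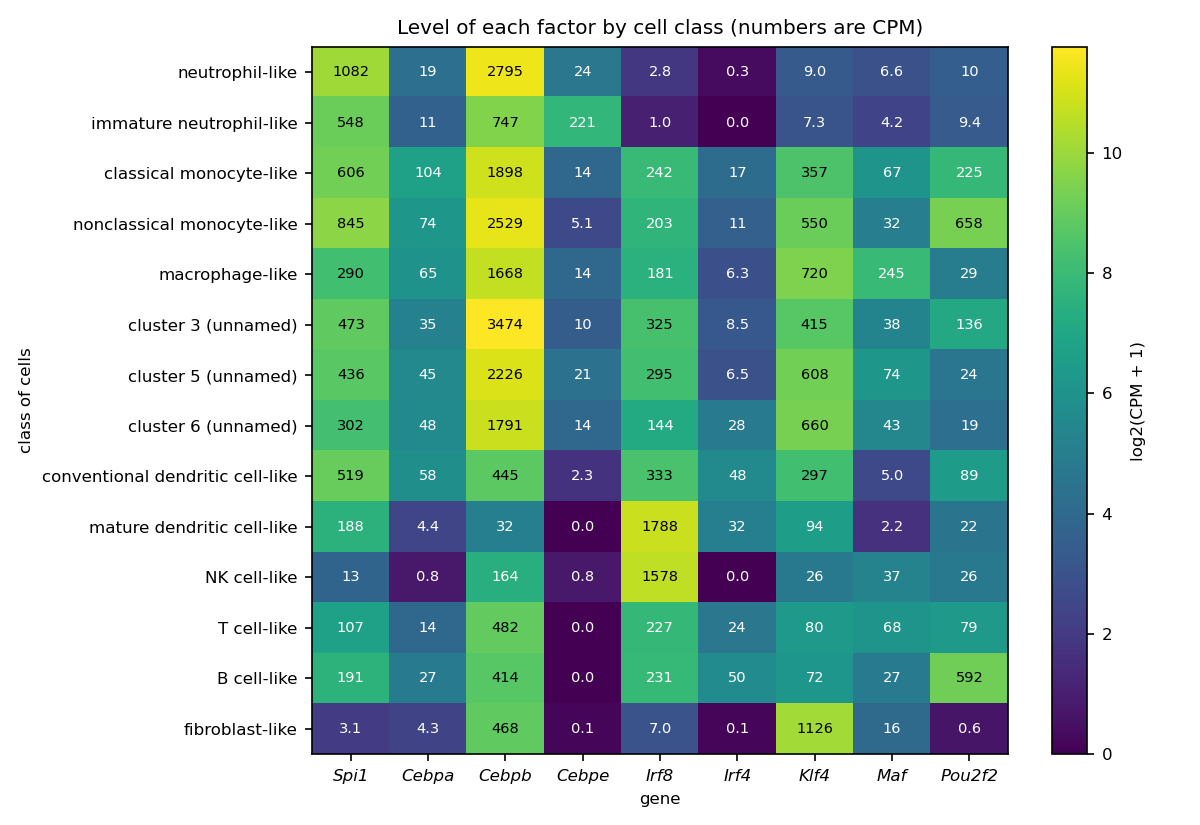
Level of each member (x axis) in each class of cells (y axis), over all 4 libraries, with the CPM printed in each cell and log2(CPM + 1) as the color. Spi1 is highest in neutrophil-like cells, Irf8 in mature dendritic cell-like and NK cell-like cells, Cebpe in immature neutrophil-like cells, Maf in macrophage-like cells and Klf4 in fibroblast-like cells.

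The C/EBP members differed from each other in level, class and tissue. Cebpa (chromosome 7, 35119293 to 35121928, plus strand, under the antisense gene Gm45091), needed early in the granulocyte and monocyte lineages, read 81.5, 65.6, 72.0 and 62.8 CPM in blood and 46.4, 43.4, 31.9 and 30.1 CPM in the tumor. All blood groups were above all tumor groups, with log2 ratios of -0.81, -0.59, -1.17 and -1.06. Between the largest class of each tissue, macrophage-like in the tumor and neutrophil-like in blood, the ratios were instead positive. They were 2.20, 2.02, 0.79 and 1.62 in the same order. Classical monocyte-like cells had the highest level of the large classes, at 104 CPM, and held 64.7% and 71.8% of its UMIs in the blood libraries (control, IR), while neutrophil-like cells read 18.9 CPM. In the IR libraries it was lower in tumor than in blood classical monocyte-like cells, at 34.6 against 119 CPM in WT (log2 -1.77, -2.07 to -1.50) and 23.8 against 100.3 in cKO (-2.07, -2.41 to -1.76). Conventional dendritic cell-like cells went the same way, at 21.3 against 113 CPM in control WT (-2.37, -3.06 to -1.81) and 20.9 against 133 in IR WT (-2.60, -3.45 to -1.96).

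Cebpb (chromosome 2, 167688915 to 167690418, plus strand, overlapped by Tmem189 on the other strand), the C/EBP protein of inflammatory and emergency myelopoiesis, had the most UMIs of the members in every group. It read 2663, 2124, 1988 and 1535 CPM in blood and 1784, 1327, 2309 and 2061 CPM in the tumor, so the tissues overlapped. After IR it was lower in blood, by log2 ratios of -0.42 in WT and -0.47 in cKO, and higher in the tumor, by 0.37 and 0.64, all under the 2-fold limit. Cluster 3 had the highest level of the large classes, at 3474 CPM over all libraries. Neutrophil-like cells of the tumor stood apart from those of blood: they read 6590.0 CPM in IR WT and 5998 in IR cKO against 2557 and 1826 in blood, log2 1.37 (1.32 to 1.41) and 1.72 (1.66 to 1.77). Nearly all of the tumor neutrophil-like cells were cluster 12, led by Ccl3, G0s2 and Ccl4, and it held 3 blood cells. In classical monocyte-like cells the tumor to blood ratio of the IR libraries was 0.82 and 0.77.

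Cebpe (chromosome 14, 54710360 to 54712174, minus strand) drives the late granule genes of neutrophils and was the member that differed most with treatment. It read 14.2, 14, 22.0 and 16.7 CPM in blood, and 4.49, 5.01, 21.1 and 22.0 CPM in the tumor, from 91 to 544 UMIs a group. Both tumor control groups were below the other 6 groups, and both tumor IR groups were close to the blood IR WT group. In the tumor, IR over control gave 2.22 (1.91 to 2.58) for WT and 2.13 (1.85 to 2.43) for cKO on the log2 scale, and Cebpe was the only 1 of 9 members past the limit, where 5.70% and 22.3% of all tested genes were. In blood the ratios were 0.64 in WT and 0.26 in cKO, no member was past the limit, and the share of all genes was 1.36% and 1.39%.

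By class, Cebpe was highest in immature neutrophil-like cells, cluster 26, at 221 CPM over all libraries and at 151 CPM in blood control, the library with at least 50 of these cells. Its log2 ratio to all other blood control cells was 3.68, and 3.99% of all genes were higher in that class past the 2-fold limit. The tumor libraries held no immature neutrophil-like cell, and of the granule genes Camp was at 0 CPM and Ngp at 0 to 0.505 CPM in the tumor groups. Of 6 listed granule genes, 3 had UMIs enough to compare IR with control in the tumor. Past the limit, 1 was higher in WT and 2 in cKO, and none was lower. The share of all tested genes past it in either direction was 5.70% and 22.3%. The Cebpe difference with IR was read in macrophage-like cells and the unnamed clusters instead of immature neutrophil-like cells. In macrophage-like cells Cebpe was 27.6 CPM after IR and 3.89 in control in WT (2.75, 2.05 to 3.70), and 19.0 against 5.01 in cKO (1.89, 1.36 to 2.53). The class was made up differently in the groups. Cluster 4, led by Mmp12, Arg1 and Spp1, was 55.0% of the control WT and 16.3% of the control cKO cells of the class, and 85.3% and 87.5% after IR. Cluster 11, led by Folr2, Mrc1 and C1qa, was 33.7% and 57.9% in control and 3.50% and 5.23% after IR. Cluster 4 was therefore also read alone: 29.6 against 5.15 CPM in WT (2.45, 1.56 to 3.69) and 20.3 against 7.72 in cKO (1.37, 0.24 to 2.87). Cluster 11 of cKO held only 1 and 11 Cebpe UMIs after IR and in control, too few for a comparison (-0.02, -5.45 to 2.76).

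The other tumor classes placed this difference further. In cluster 5 Cebpe was 22.4 against 6.30 CPM in WT (1.78, 1.08 to 2.66) and 32.7 against 6.75 in cKO (2.22, 1.31 to 3.43), and in cluster 6 it was 35.2 against 9.10 (1.91) and 24.5 against 10.7 (1.17). Cluster 3 differed less, at 10 against 5.33 CPM (0.88) and 16.9 against 7.55 (1.12). Across 16 cluster-by-genotype values of the tumor, taken with no UMI minimum, 8 intervals were above 0 and none was below it. Such values come from the same pooled samples and are not repeats, and their intervals cover counting error only. The share of all genes with such intervals was not counted, here or for Maf, Irf8 and Irf4 below. The minimum of 100 UMIs was met by 4 of these values, those of cluster 4 in both genotypes and of clusters 5 and 6 in cKO, and all 4 intervals were above 0, while the values of cluster 3 and of clusters 5 and 6 in WT rest on 52 to 95 UMIs. Conventional dendritic cell-like, NK cell-like and fibroblast-like cells of tumor IR read 4.24, 2.12 and 0.614 CPM. Barcodes with fewer than 100 UMIs, which serve as the free RNA level, read 21.2 CPM in the tumor IR matrix and 12.3 CPM in the tumor control matrix. They were taken by matrix without hashtags, and both matrices held barcodes of both treatments, so neither value belongs to 1 treatment. Against the tumor IR matrix, macrophage-like cells after IR were above in WT and under in cKO. Clusters 5 and 6 after IR were above it and cluster 3 under it in both genotypes. All of these classes in tumor control were under the value of the tumor control matrix. Whether a class exceeded the free RNA of its own treatment cannot be read from these values. After IR, macrophage-like cells held 27.6% of the tumor Cebpe UMIs, classical monocyte-like cells 27.4% and cluster 5 23.5%. The classical monocyte-like cells, at 38.1 CPM in tumor IR, were cluster 9 there, led by the interferon-induced genes Ifit1bl1, Ifit2 and Rsad2, and were 16.2% and 13.7% of the IR groups against 1.57% and 0.919% of the control groups. Thinned to 1000 UMIs a cell, 1.87% of macrophage-like cells held a Cebpe UMI in tumor IR and 0.367% in tumor control (11.4% and 3.53% before thinning). No UMI was seen in 111 and 366 thinned fibroblast-like cells, which allows shares of up to 3.27% and 1.0% by the exact binomial interval, so a difference from macrophage-like cells was not detectable at this depth in either library.

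Over the macrophage-like class, 1 member was higher and 1 lower past the limit after IR in each genotype (8 tested), against 5.76% of all genes in WT and 15.0% in cKO. The lower member was Cebpa, at 39.8 against 82.2 CPM in WT (-1.04, -1.31 to -0.78) and 40.5 against 93.6 in cKO (-1.20, -1.41 to -1.0). In cluster 4 alone the Cebpa ratios were -0.45 and -0.74, under the limit. For Maf the sign in cluster 4 was opposite to that of the class. It was lower after IR in the macrophage-like class, at -0.50 in WT and -0.38 in cKO, and higher within cluster 4, at 179 against 145 CPM in WT (0.31, 0.10 to 0.52) and 242 against 141 in cKO (0.78, 0.50 to 1.07). In cluster 5 Maf was 93.6 against 33.6 CPM (1.47) and 93.5 against 39.8 (1.23), and of its 16 cluster-by-genotype intervals 9 were above 0 and 1 below it (8 and 1 of the 9 values with at least 100 UMIs). The interval below 0 was that of cluster 11 in cKO, at 364 against 451 CPM.

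**Figure D4:**
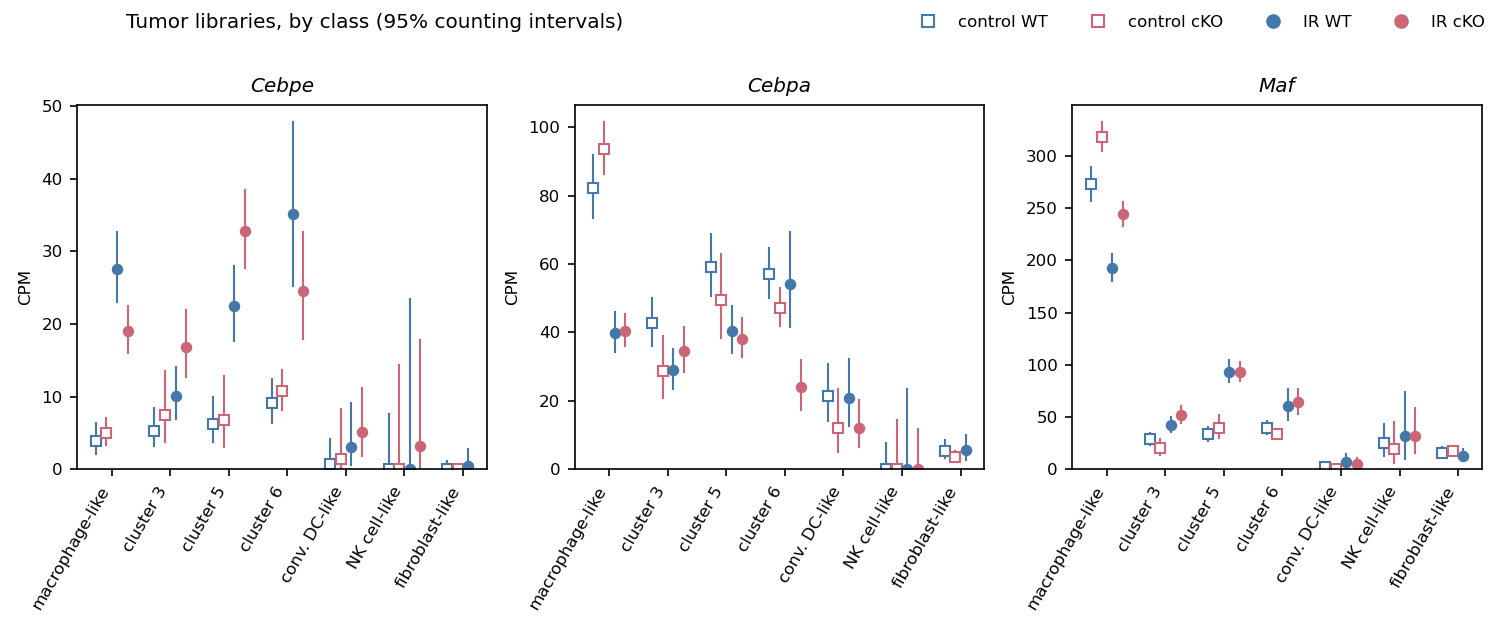
Cebpe, Cebpa and Maf in CPM (y axis, from 0) by class of tumor cells (x axis), for control (open squares) and IR (filled circles) cells labelled WT (blue) and cKO (red), with 95% counting intervals. Cebpe sits higher after IR in macrophage-like cells and clusters 5 and 6 of both genotypes, while Maf sits lower in macrophage-like cells and higher in clusters 3, 5 and 6.

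The IRF members each marked some dendritic and lymphoid classes, and not the neutrophils. Among named classes, Irf8 was past the limit over all other cells, in every library tested, in mature dendritic cell-like and NK cell-like cells. On the log2 scale it was 0.46 to 0.83 in conventional dendritic cell-like, 0.57 in B cell-like and -0.44 to 0.77 in T cell-like cells. Irf4 was past it in conventional and mature dendritic cell-like and B cell-like cells. In NK cell-like cells Irf4 was at -8.24 to -7.44, and in T cell-like cells at 0.44 to 0.97. Irf8 (chromosome 8, 120736358 to 120756694, plus strand, overlapped by Gm20388 on the same strand) read 166, 147, 139 and 151 CPM in blood and 245, 186, 243 and 297 CPM in the tumor. All tumor groups were above all blood groups, at log2 ratios of 0.56, 0.34, 0.81 and 0.98, none past the limit. With IR the tumor ratio was -0.01 in WT and 0.67 in cKO, and the difference between these was not tested. Of 13 cluster-by-genotype values with at least 100 UMIs, 5 intervals were above 0 and 5 below it. Those above were cluster 4 (0.52 in WT and 0.34 in cKO), NK cell-like cells (0.46 and 0.33) and the dendritic cells of WT (0.46). Those below were clusters 5 (-0.45 and -0.52) and 6 (-0.37 and -0.27) and cluster 11 of cKO (-0.37). The macrophage-like class of cKO, of mixed clusters, was at -0.41, beside a share of mature dendritic cell-like cells of 1.89% after IR and 0.827% in control. Mature dendritic cell-like cells had the highest level, at 1788 CPM, and NK cell-like cells followed at 1578, while classical monocyte-like cells read 242 and neutrophil-like cells 2.78 CPM. Blood neutrophil-like cells were at 1.91 CPM in control and 1.69 in IR, where the free RNA level was 145 and 124 CPM.

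NK cell-like Irf8 was 3.08 to 3.36 above all other cells on the log2 scale in the 4 libraries, where 5.04% of all genes were past the limit in every library. It was 1185 and 1114 CPM in the blood libraries (control, IR) and 1898 and 2372 CPM in the tumor libraries, so both tumor libraries were above both blood libraries. These cells were cluster 16 in blood and cluster 17, led by Gzmb and Xcl1, in the tumor. Thinned to 1000 UMIs, 62.5% and 59.3% of NK cell-like cells held an Irf8 UMI in the blood libraries and 80.9% and 82.6% in the tumor libraries, against 0.258% and 0.179% of blood neutrophil-like cells. Before thinning these shares were 89.9%, 93.4%, 92.2% and 97.1%, and 0.459% and 0.451%. In mature dendritic cell-like cells of tumor IR Irf8 was 3.04 and Irf4 2.30 above the rest, where 12.9% of genes were past the limit. Conventional dendritic cell-like Irf8 was higher in the tumor (cluster 15) than in blood (cluster 21), at 316 against 212 CPM in control WT (0.57), 415 against 215 in control cKO (0.94) and 444 against 222 in IR WT (1.0).

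Irf4 (chromosome 13, 30749226 to 30766976, plus strand) had few UMIs, 136 to 370 a group. It read 11.5, 13.2, 10.2 and 12.2 CPM in blood and 10.9, 15.6, 6.68 and 8.33 CPM in the tumor, so the tissues overlapped and both tumor IR groups were the lowest. In the tumor, IR over control gave -0.70 (-1.03 to -0.39) for WT and -0.90 (-1.16 to -0.65) for cKO. B cell-like cells read 50.4 CPM and conventional dendritic cell-like cells 48.0, then mature dendritic cell-like cells at 32.2 and cluster 6 at 27.7, while NK cell-like cells had no UMI. In the dendritic class its excess over other cells was 1.83 to 2.87 in the 4 libraries, where 0.804% of genes were past the limit in every library. Cluster 6, which held 48.6% of its tumor control UMIs, was 19.7% and 27.1% of the tumor control groups and 4.84% and 5.99% of the IR groups. Within cluster 6 Irf4 was 23.2 against 19.4 CPM with IR in WT (0.25, -0.43 to 0.90) and 26.1 against 35.1 in cKO (-0.42, -0.91 to 0.03), intervals that both include 0. The other clusters had fewer than 100 Irf4 UMIs, and of all 16 cluster-by-genotype intervals 4 were below 0 (clusters 4 and 5 of WT, at -1.62 and -1.52, and clusters 5 and 14 of cKO, at -1.25 and -2.41) and 1 was above it (cluster 3 of WT, at 0.82).

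Klf4 (chromosome 4, 55527143 to 55532466, minus strand), a zinc-finger factor of monocytes, read 233, 249, 175 and 181 CPM in blood and 761, 759, 593 and 553 CPM in the tumor. All tumor groups were above all blood groups, and in each tissue the IR groups were below the control groups. The tumor to blood ratios were 1.70, 1.60, 1.76 and 1.61, and the IR to control ratios were -0.42, -0.46, -0.36 and -0.46 in blood WT, blood cKO, tumor WT and tumor cKO. Fibroblast-like cells read 1126 CPM and held 36.7% of the Klf4 UMIs of tumor control and 12.7% of those of tumor IR. Macrophage-like cells read 720.4 CPM, nonclassical monocyte-like cells 550.5, classical monocyte-like cells 357 and neutrophil-like cells 8.96. Nonclassical monocyte-like Klf4 was 1.71 above other blood cells in both blood libraries, and Pou2f2 was 2.14 and 2.19 above, where 4.08% of genes were past the limit in both. Within classical monocyte-like cells, which contain no fibroblast-like cluster, Klf4 was 577 CPM in tumor against 259 in blood in IR WT (1.15, 1.07 to 1.24) and 596 against 263 in IR cKO (1.18, 1.10 to 1.27).

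Maf (chromosome 8, 115682942 to 115707794, minus strand, with the antisense gene Gm15655) read 24.2, 24.1, 30.0 and 20.0 CPM in blood and 76.6, 104, 102 and 135 CPM in the tumor. All tumor groups were above all blood groups, at log2 ratios of 1.66, 2.11, 1.76 and 2.75. Macrophage-like cells had the highest level, at 245 CPM, and held 76.5% of its tumor control UMIs and 49.7% of those of tumor IR. Within them cluster 11 read 451 CPM in the control cKO cells, above the 141 CPM of cluster 4. In classical monocyte-like cells of the IR libraries Maf was 159 CPM in tumor against 48.7 in blood in WT (1.70, 1.53 to 1.89) and 204 against 32.5 in cKO (2.65, 2.45 to 2.85). Conventional dendritic cell-like cells stayed at 4.97 CPM over all libraries. Thinned to 1000 UMIs, 16.4% of tumor IR classical monocyte-like cells held a Maf UMI, against 4.25% and 3.72% of those of the blood libraries and 0.380% of tumor IR dendritic cell-like cells (49.6%, 28.2%, 33.2% and 3.77% before thinning).

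Pou2f2 (chromosome 7, 25087344 to 25179726, minus strand, overlapping Mir6537 and D930028M14Rik) was the member furthest apart between tissues in 3 of 4 pairings, with Maf further apart in IR cKO. It read 208, 254, 182 and 197 CPM in blood and 36.8, 29.1, 34.5 and 33.0 CPM in the tumor. The lowest blood group was well above the highest tumor group, and the log2 ratios were -2.50, -3.12, -2.40 and -2.58. The direction depended on the cells compared: between the largest class of each tissue, macrophage-like cells in the tumor and neutrophil-like cells in blood, it was 0.77, 1.88, -0.02 and 0.70. Nonclassical monocyte-like cells read 658 CPM and B cell-like cells 592, classical monocyte-like cells 225, cluster 3 136 and neutrophil-like cells 10.3. In B cell-like cells of blood control Irf4 was 2.09 and Pou2f2 1.58 above the rest, where 20.4% of genes were past the limit. In classical monocyte-like cells of the IR libraries Pou2f2 was 33.1 CPM in tumor against 233 in blood in WT (-2.81, -3.10 to -2.54) and 24.9 against 279.6 in cKO (-3.48, -3.81 to -3.19). Dendritic cell-like cells also differed, at 33.5 against 218 CPM in control WT (-2.68), 41.9 against 213 in control cKO (-2.30) and 23 against 141 in IR WT (-2.55). Thinned to 1000 UMIs, 25% and 21.5% of blood classical monocyte-like cells and 3.31% of those of tumor IR held a Pou2f2 UMI, against 1.01% and 0.943% of blood neutrophil-like cells (83.3%, 86.5%, 12.9%, 1.75% and 2.06% before thinning). In the tumor, cluster 3 held 52.8% and 52.0% of the Pou2f2 UMIs of control and IR.

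Within a class, then, the tissue difference was read for the members in the classes that both tissues held. For most of these classes the blood and tumor cells fell in different clusters, so the ratios compare clusters that share a class name. Conventional dendritic cell-like cells were mostly cluster 21 in blood and cluster 15 in the tumor, and NK cell-like cells mostly clusters 16 and 17. Whether the same cell type differs between tissues was not tested. In classical monocyte-like cells of the IR libraries, cluster 2 in blood and cluster 9 in the tumor, 3 members were higher (Cebpe, Klf4, Maf) and 3 lower (Cebpa, Irf4, Pou2f2) past the limit in each genotype, of 9 tested, against 43.0% of all genes in WT and 42.4% in cKO. Irf4 was at 2.66 against 17.2 CPM in WT and 3.59 against 20.0 in cKO. In neutrophil-like cells, where few members had UMIs enough, the shares of all genes were 56.2% in IR WT and 52.7% in IR cKO, and past the limit were Cebpb above and Spi1 and Cebpa below in both genotypes, and Cebpe below in WT. The Cebpa value in cKO, -1.11 (-3.44 to 0.45), had an interval that includes 0. In conventional dendritic cell-like cells of control WT 2 of 7 members, Cebpa and Pou2f2, were lower past the limit, against 22.7% of genes. In macrophage-like cells of IR cKO, 63 cells in blood and 1033 in the tumor, 2 of 8 members were higher (Klf4 at 1.19, Maf at 3.44) and 3 lower (Spi1 at -1.03, Cebpa at -1.22, Pou2f2 at -3.73), against 36.8% of genes. All of these blood cells were cluster 20, led by the cycling genes Pclaf, Mki67 and Cdca3, while 87.5% of the tumor cells were cluster 4. The values therefore compare different clusters that share a class name. In NK cell-like cells of IR WT the 1 member tested, Irf8, was higher at 1.26, against 15.2% of genes, and in the control pairings none was past the limit. Cebpe was higher in tumor classical monocyte-like cells, at 39.0 against 12.0 CPM in WT (1.68, 1.33 to 2.07), and lower in tumor neutrophil-like cells, at 11.7 against 30.9 in WT (-1.38, -2.62 to -0.40) and 15.9 against 23.8 in cKO (-0.58, -1.82 to 0.42).

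**Figure D5:**
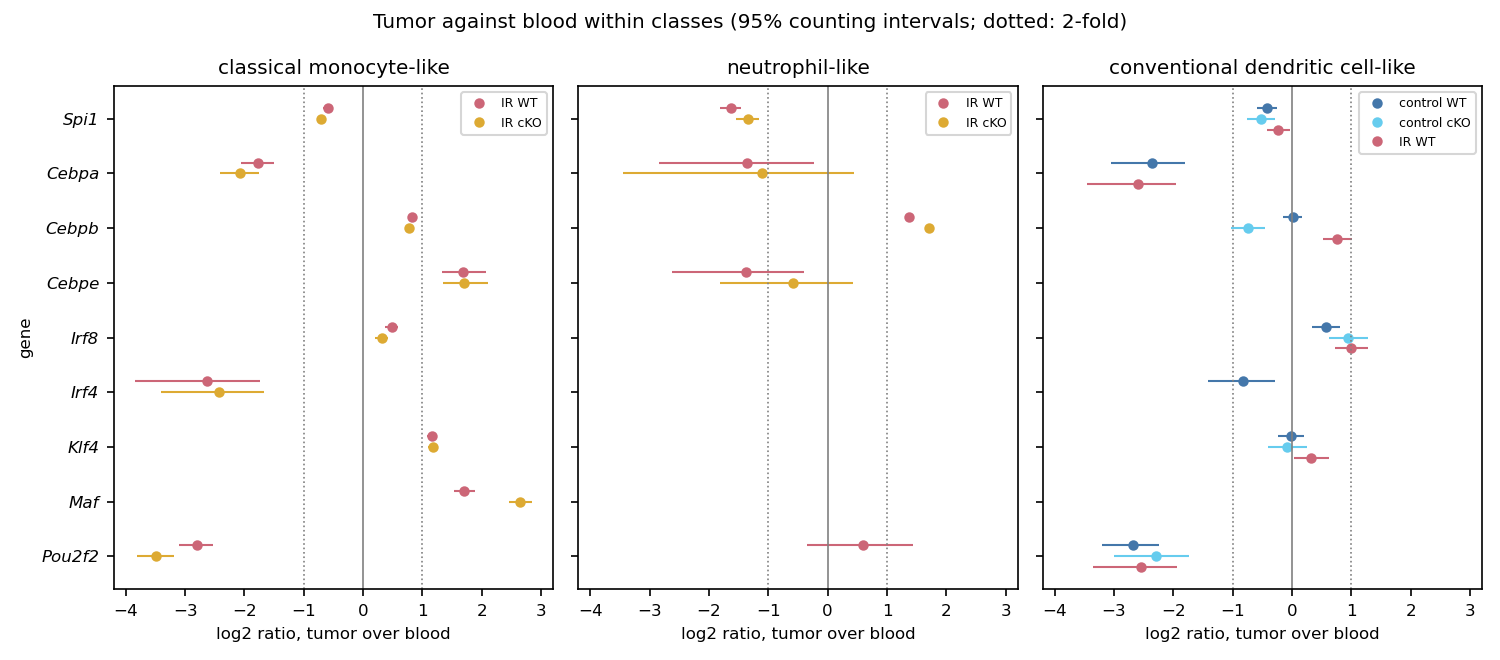
Log2 ratio of CPM, tumor over blood (x axis), of each member with at least 100 UMIs (y axis) within classical monocyte-like, neutrophil-like and conventional dendritic cell-like cells, with 95% counting intervals and dotted lines at 2-fold. Pou2f2 and Cebpa lie at -1.77 or lower in monocyte-like and dendritic cell-like cells, and Cebpb lies at 1.37 and 1.72 in neutrophil-like cells. Blood and tumor cells of a class fell mostly in different clusters.

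By genotype no member passed the limit in any library, of 36 member values, where 2.22% and 0.609% of genes did in the blood libraries (control, IR) and 4.91% and 1.22% in the tumor libraries. Cebpa, Cebpb and Irf4 kept 1 sign in the 4 libraries, 3 of 9 members against 20.9% of 8832 genes. Cebpb was lower in the cells labelled cKO in each library, at log2 ratios of -0.33 (-0.34 to -0.31) and -0.37 (-0.39 to -0.35) for blood (control, IR) and -0.43 (-0.45 to -0.41) and -0.16 (-0.18 to -0.15) for tumor. In neutrophil-like cells it was 2389.7 against 3684 CPM in blood control (-0.62) and 1826 against 2557 in blood IR (-0.49), and in classical monocyte-like cells the ratios were -0.18 and -0.23. Cluster 3 of tumor control went the other way, at 3979 against 3555 CPM (0.16). Irf4 was higher in the cells labelled cKO, by 0.20, 0.25, 0.51 and 0.32, and the intervals of the blood libraries included 0. Maf was at -0.58 (-0.77 to -0.41) in blood IR and at 0.45 and 0.40 in the tumor libraries, and Irf8 was at -0.39 in tumor control and 0.29 in tumor IR. Within macrophage-like cells of tumor control Irf8 was instead higher in cKO, at 221 against 152 CPM (0.55, 0.41 to 0.69), with cluster 4 the larger part of the class in WT and cluster 11 in cKO. Within cluster 4 it was 131 against 110 CPM (0.25, -0.10 to 0.61) and within cluster 11 253 against 195 (0.38, 0.19 to 0.56). These values stand beside a fibroblast-like share of 11.6% in cKO and 4.5% in WT, whose part in the group value was not tested. Within classes, a member was past the limit by genotype in cluster 6 of tumor IR and in NK cell-like cells of blood control. In cluster 6 it was Cebpa, at 24.0 against 54.1 CPM (-1.15, -1.76 to -0.60), where 0.355% of genes were past the limit. In the NK cell-like cells it was Cebpb, at 257 against 127 CPM (1.01, 0.49 to 1.53), where 1.06% were. That comparison rests on 57 cKO and 211 WT cells. The free RNA level of Cebpb in blood control was 2561 CPM, above both values, and its part in them was not tested.

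Genes from the same pathways were read as fixed lists, with no test of a list. For scale, 35.8%, 44.0%, 32.9% and 32.4% of all tested genes were past the limit in either direction in the 4 tissue pairings. With IR in the tumor the shares were 5.70% in WT and 22.3% in cKO. Among the MAF relatives, Maff was higher in the tumor in all 4 pairings, at log2 ratios of 2.77 to 4.68, beside Maf, and Mafk was at 1.01 in IR cKO. Of 6 KLF relatives 3, 4, 3 and 3 were lower in the tumor and none higher, opposite to Klf4. Klf2, which keeps leukocytes quiescent, was at -2.0, -1.72, -2.26 and -2.64. Of 4 C/EBP relatives, Cebpd was lower in the tumor at -3.31, -3.01, -3.54 and -3.80, and Cebpz was lower in all but control cKO. Of 6 tested IRF relatives, Irf7, which amplifies type I interferon, was higher after IR in the tumor, at 569 against 113 CPM in WT (2.33) and 506 against 50.9 in cKO (3.31), and Irf9 at 1.49 in cKO.

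Target genes of the members were read the same way. Of 7 PU.1 target genes, Csf3r, the receptor for G-CSF, was lower in the tumor at -5.65, -6.41, -4.80 and -5.02, and Cd14 was higher at 2.92, 3.17, 3.98 and 4.56. Of 6 granule genes of the C/EBP-epsilon list, 5 were higher in cKO in blood control: Ngp at 1103 against 136 CPM (3.02), Camp at 114 against 15.7 (2.85), Ltf at 264 against 44.1 (2.58), Lcn2 at 1.57, and a further gene. In blood IR 3 were lower in cKO, with Ngp at -1.26. By genotype, 2.22% of all tested genes were past the limit in either direction in blood control and 0.609% in blood IR. Cebpe itself was at -0.02 and -0.40 in these libraries. The immature neutrophil-like class was 2.03% of the cKO and 0.289% of the WT cells in blood control, and 0.185% and 0.346% in blood IR, and its part in these values was not tested. Of the IRF8 and IRF4 effector genes, Cd74, the invariant chain of MHC class II, was higher in the tumor at 2.41, 1.76, 2.29 and 2.36, and Cxcl9 was at 805, 492, 347 and 332 CPM in the tumor groups and at 0.461 to 8.12 in blood.

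Of 25 other myeloid fate factors, 21, 20, 20 and 21 were tested in the 4 pairings, and 6, 5, 8 and 9 were higher and 5, 6, 4 and 4 lower in the tumor, against 35.8%, 44.0%, 32.9% and 32.4% of all tested genes past the limit in either direction. Bhlhe40 was higher at 2.76, 2.96, 3.13 and 3.78 in the 4 pairings, Runx3 was higher at 2.16, 2.68 and 2.99 in control WT, IR WT and IR cKO, and Ikzf1, the lymphoid and myeloid regulator Ikaros, was lower at -1.99 and -2.34 in the control pairings. ETS relatives of Spi1 showed 0 to 2 members past the limit in either direction in each tissue pairing, with Ets2 higher in the IR pairings at 1.45 and 2.33, and the POU relatives had 1 gene with UMIs enough and none past the limit.

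The genes most like each member were taken by Pearson r of log2(CPM + 1) over 57 class-by-group sums, among 10016 genes. The sums share libraries, depth and clusters, so r is a description. Among the genes most like Spi1 were Mcemp1 (0.958) and Pirb (0.944), and Klf4 was most like Myof (0.937), Scpep1 (0.918) and Lrp1 (0.908). Cebpa was most like Psap (0.925), Cebpb most like Slc11a1 (0.903) and Cebpe most like A530064D06Rik (0.859). Irf8 was most like Crybg1 (0.911), Irf4 most like Nectin1 (0.856), Pou2f2 most like Fam49a (0.865), and Maf, with the lowest value of the 9, most like Appl2 (0.778).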

How the data were processed

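Single-cell mRNA and hashtag libraries were made with 10x Genomics 3′ v3.1 chemistry. The authors deposited counts of UMIs per feature and barcode, unfiltered and not normalized, aligned by Cell Ranger to mm10 with GENCODE vM23. The submitters' processing notes name Cell Ranger 6.0.1 and Seurat 4.0.6, while the file headers name Cell Ranger 4.

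Barcodes were kept with at least 500 gene UMIs, 200 genes, at most 25% mitochondrial UMIs and 20 hashtag UMIs. A cell was labelled WT if B0301 was at least B0302, and cKO if B0302 was at least 4 times B0301. Scrublet itself called 1 to 8 doublets a library and so did not work as a caller, and the 6% of barcodes with the highest score were removed. Cells of the 4 libraries were clustered together (scanpy 1.11.5, leidenalg 0.10.2, 2000 variable genes, 40 principal components, 20 neighbours, resolution 1), without the members, Ythdf2, Lyz1 and Lyz2. A cluster was named "-like" if at least 3 of a type's fixed markers were raised in it and no other type led. Names rebuilt this way may differ from those of the study.

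UMIs were summed per group or class and scaled to CPM, with exact Poisson intervals. Log2 ratios add 1 UMI and carry exact conditional binomial intervals, and shares carry exact Clopper-Pearson intervals, all at 95% and for counting error only. A gene entered a comparison of groups or classes with at least 100 UMIs in both together, and values by cluster were also given below that minimum, with their UMIs or intervals. A class entered with at least 50 cells. With 1 pooled sample per group no test across samples was run. The log2 ratio, its limit and its interval were tried on simulated counts of all genes with planted changes. That simulation held counting error only, so it does not bear on differences between mice or libraries.

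The named genes were the 9 members, the listed relatives and targets past the limit (at most 4 for each list and comparison), and the 3 genes most like each member. Some genes that this rule names are not reported here. The members and lists were chosen with earlier results of these data known. Gene positions are from a GENCODE annotation of mm10, and promoters from RefSeq (GRCm38.p6). Alternatives covered the hashtag margin, doublet removal, cell calling, mitochondrial filter, TMM scaling (edgeR 4.0.16, R 4.3.3), added UMIs, UMI minimum, clustering, thinning and left-out libraries.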

Additional observations from a re-analysis of the deposited data

Results flagged for a closer look

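Cebpb was the member whose IR to control ratio had opposite signs in the tissues, in both genotypes. It was -0.42 in blood WT and -0.47 in blood cKO, and 0.37 in tumor WT and 0.64 in tumor cKO, on the log2 scale. The difference between the tissues was not tested, and all of these values were under the 2-fold limit.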

How the results depend on the processing

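No paired analysis was possible because each group is 1 pooled sample and no replicate numbers are shared. Of 22 member values past the limit under 8 settings, which make 176 values, 169 kept their sign and the limit, 2 fell under the limit and 5 changed sign. All 5 came from the setting that took only the largest named class of each tissue, neutrophil-like cells in blood and macrophage-like cells in the tumor. There Pou2f2, tumor against blood, was 0.77 in control WT, 1.88 in control cKO, -0.02 in IR WT and 0.70 in IR cKO, and Cebpa was 0.79 in IR WT and 1.62 in IR cKO. The class of cells compared is what this setting changes. The number of members past the limit for IR against control was 4 there, against 2 as reported, and 2 or 3 in the other settings.

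TMM scaling moved the tumor ratios of IR to control up by 0.14 in WT and 0.19 in cKO, which put Spi1 in cKO at 1.01 and turned Irf8 and Pou2f2 in WT from -0.01 and -0.10 to 0.13 and 0.04. It put Cebpa in tumor against blood, IR cKO, at -0.96, under the limit. No member passed the limit by genotype in any setting, and tumor against blood gave 20 to 23. The 9 pairs of a member and a class were 8 to 11 under the other processing choices. Without 1 library they were 6 to 10, with 6 without blood control, since a class then had too few cells in the remaining libraries. Leaving out the barcodes with hashtags in both tumor libraries, chosen after seeing the data, changed none of the counts.

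Depth limits Cebpe and Irf4, with 91 to 544 and 136 to 370 UMIs a group, and libraries are confounded with tissue and treatment, so they cannot be told apart.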

Other observations

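Over the 57 class-by-group sums, the members most alike in level were Spi1 and Cebpa (Pearson r of log2(CPM + 1) 0.779) and Cebpb and Cebpe (0.688), and the least alike were Cebpb and Irf8 (-0.416) and Cebpe and Irf8 (-0.401). The sums share libraries and clusters, so these are descriptions.

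Cluster 14, which has no name and is led by Gm26917, Gm42418 and mt-Nd5, read 1408 CPM of Pou2f2 in its 59 blood control cells, above the 675 CPM of nonclassical monocyte-like cells in the same library, and 41.2 and 42.4 CPM in tumor control and tumor IR. The small macrophage-like class of blood IR, 1.05% of its cells, was all cluster 20, led by the cycling genes Pclaf, Mki67 and Cdca3. It read 205 CPM of Pou2f2 and 18.8 CPM of Maf, where tumor IR macrophage-like cells read 14.9 and 224 CPM.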
